A study of Rattus norvegicus with 12 samples.

Results

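Transcripts of 35 genes of fatty acid oxidation and ketone body formation were followed in rat liver. The members were taken by name from the gene table of the study, where 34 were found by symbol and Acaa1a was found by its gene ID under the symbol Acaa1, out of 40154 genes in all. Liver RNA of Sprague Dawley rats, an outbred laboratory stock, was sequenced in 12 libraries, 3 in each of 4 groups: HFD+SAMC (high fat feeding plus SAMC), HFD (high fat feeding), Control+SAMC (normal feeding plus SAMC) and Control (normal feeding). SAMC is S-allylmercaptocysteine, a water-soluble organosulfur compound of aged garlic. The study concerns non-alcoholic fatty liver disease, and for these genes its design asks what the high fat diet changed, what SAMC changed on each diet, and whether the effect of the diet depended on SAMC. Neither the amount nor the length of either treatment is labelled, nor are sex and age, and separate animals are not named as the source of the libraries. The p-values therefore reflect only spread among these libraries, part of which may be technical.

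Fatty acids enter mitochondria as carnitine esters, are shortened in repeated rounds of dehydrogenation, hydration, oxidation and thiolysis, and pass electrons to the respiratory chain through the electron transfer flavoprotein. Very long, branched and dicarboxylic chains are shortened in peroxisomes, and the liver turns surplus acetyl-CoA into ketone bodies for other tissues. PPARa, a nuclear receptor that binds fatty acids, raises many of these genes in rodent liver during fasting and fat feeding.

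Total counts ran from 45680738 to 61937544 per library, and all 35 members were among the 15916 genes with enough counts to be tested. Levels within a gene are given as CPM, the count scaled to a common library size. Summed markers of hepatocytes stood at 127100 to 364400 CPM, and 0 of 10 of them were at 0 in all libraries. In 4 libraries, HFD replicates 2 and 3, Control+SAMC replicate 1 and Control replicate 2, the fibrinogen chain transcript Fga was at 3378 to 3822 CPM, against 8221 to 18520 CPM in the other 8. Skeletal muscle markers summed to 1211 CPM in HFD+SAMC replicate 3 and to at most 1.86 CPM elsewhere. The deposited RPKM values of HFD+SAMC and Control libraries imply a length of 3377 bp for RGD1562465. Those of HFD and Control+SAMC libraries use the listed 4432 bp. By this 1 gene of 40154 the libraries are split here into a pair of processing sets. The labels do not state whether these are batches, and a difference in the counts used for the tests was not tested. Each comparison of groups that differ in 1 factor crosses these sets, while the diet effect averaged over SAMC and the SAMC effect averaged over diet are balanced over them.

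Members took up 0.944% to 1.32% of all counts in HFD+SAMC libraries, 1.12% to 1.32% in HFD, 0.697% to 0.845% in Control+SAMC and 0.683% to 1.02% in Control. Per gene length, the highest median level over the 12 libraries was that of Eci1, an isomerase for unsaturated chains, at 461 RPKM, a read density scaled by gene length and library total. It was followed by the mitochondrial thiolase Acaa2 at 432 RPKM and the peroxisomal thiolase and sterol carrier Scp2 at 362 RPKM. At the low end stood the mitochondrial uncoupling carrier Ucp2 at 15.3 RPKM, the peroxisome division factor Pex11a at 11.9 RPKM, the secreted hormone Fgf21 at 11.3 RPKM and the enoyl-CoA hydratase Echs1 at 4.93 RPKM. The Echs1 level is uncertain, since LOC100911186, listed as a mitochondrial-like enoyl-CoA hydratase, held 2205 counts over all libraries against 4631 for Echs1, and Echs1 overlaps Paox on the other strand. Acaa1a has a close paralog, Acaa1b, and its reads may likewise have been split.

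**Figure D1:**
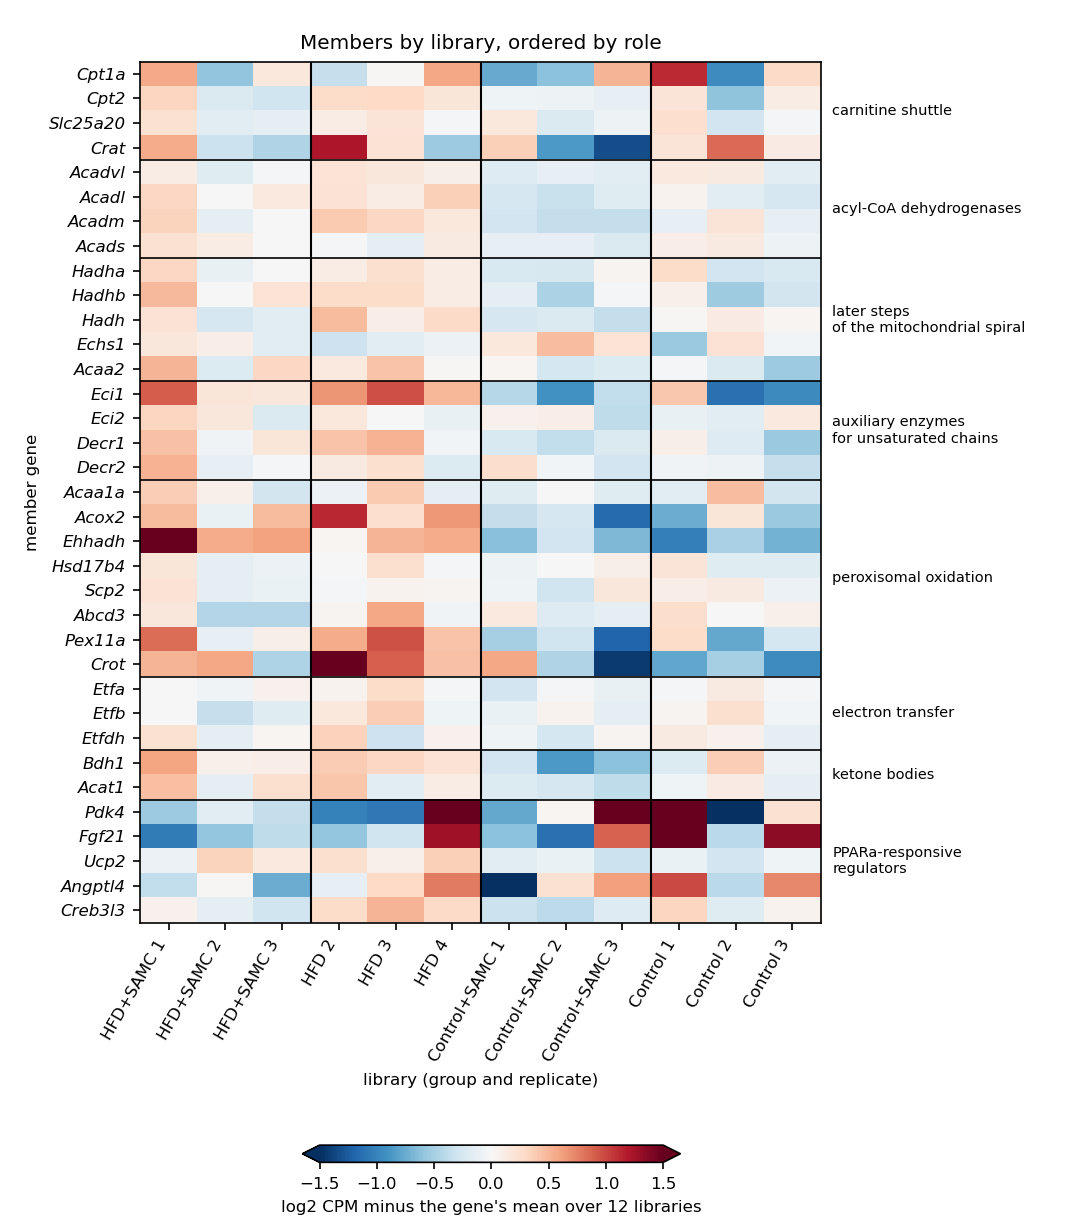
Log2 CPM of each of the 35 members minus the member's own mean, in each of the 12 libraries (columns, by group and replicate), with members in rows ordered by role and horizontal lines between roles. Eci1, Acox2, Ehhadh, Pex11a and Crot are mostly red in HFD+SAMC and HFD and mostly blue in Control+SAMC and Control, and Pdk4 is dark red in HFD replicate 4, Control+SAMC replicate 3 and Control replicate 1.

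The high fat diet was asked about first, averaged over SAMC, with 6 libraries on the high fat diet against 6 on the normal diet. Ehhadh rose 2.47-fold and was the only member to pass. It encodes the peroxisomal bifunctional enzyme, which hydrates and then oxidises the shortened acyl-CoA and is a textbook PPARa target in rodents. Its level was 919, 458 and 476 CPM in HFD+SAMC and 318, 442 and 457 CPM in HFD, against 201, 256 and 195 CPM in Control+SAMC and 154, 223 and 190.1 CPM in Control. All 6 high fat libraries lay above all 6 normal diet libraries, and HFD+SAMC replicate 1 lay far above the other 5. The log2 fold change was 1.30 ± 0.19 (SE), with an adjusted p of 0.0134 in the quasi-likelihood test of edgeR, after Benjamini-Hochberg adjustment over all genes tested. With each library left out in turn the call held in 12 of 12 fits, with adjusted p from 0.0107 to 0.0457. With the replicate numbers as a block in the edgeR fit the call was lost, at an adjusted p of 0.0623. In the same contrast 0.421% of all genes were called, and 38 of 15916, 0.239%, were called higher. In bulk liver RNA, fewer cells of a type and less RNA per cell cannot be told apart. Of 10 hepatocyte markers, 1 had an averaged diet log2 fold change above 0, with a median of -0.36. By edgeR 0 were called and 5 had an unadjusted p under 0.05 in either direction, against 2163 of 15916 genes tested. The part of these markers in the members' values was not tested.

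Of the 35 members, 29 had a log2 fold change above 0 in the averaged diet contrast, against 50.1% of all genes, and their median was 0.19 against 0.00 over all genes tested. The members' median ran from 0.08 to 0.24 with each library left out in turn, lowest without HFD+SAMC replicate 1. At an unadjusted p under 0.05, 13 members were higher and 0 were lower, where 7.3% and 6.29% of all genes were. With each library left out in turn, 12 to 15 were higher. The 13 were Acadl, Acadm, Hadhb, Acaa2, Eci1, Decr1, Acox2, Ehhadh, Pex11a, Crot, Bdh1, Acat1 and Ucp2. Separation was full for Ehhadh alone, and 0.578% of all genes had every high fat library above every normal diet library. DESeq2 called 9 members where edgeR called 1, among 538 and 67 genes over the whole table.

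Among the 8 peroxisomal members the median log2 fold change was 0.51, with Ehhadh, Crot, Acox2 and Pex11a at 0.90 to 1.30. Acox2 is the oxidase for bile acid intermediates. It stood at 408, 273.5 and 408 CPM in HFD+SAMC and 640.0, 348 and 460 CPM in HFD, against 228.5, 246 and 132 CPM in Control+SAMC and 175, 333 and 200.0 CPM in Control. Control replicate 2 was the sole normal diet library above any high fat one, and the averaged log2 fold change was 0.94 ± 0.22 (edgeR adjusted p = 0.106). Crot, the carnitine octanoyltransferase that moves shortened chains out of peroxisomes, was at 123, 130.0 and 62.9 CPM in HFD+SAMC and 254, 161 and 117 CPM in HFD, against 129.5, 63.4 and 32.0 CPM in Control+SAMC and 50.5, 61.5 and 45.1 CPM in Control. Its HFD libraries all lay above its Control libraries, while its HFD+SAMC and Control+SAMC libraries overlapped. Pex11a, which drives peroxisome elongation and division, was at 48.8, 25.1 and 28.9 CPM in HFD+SAMC and 40.2, 52.7 and 36.6 CPM in HFD, against 19.2, 22.2 and 11.9 CPM in Control+SAMC and 33.1, 15.9 and 22.7 CPM in Control. Control replicate 1 was the sole library on the normal diet that reached into the high fat range. Averaged log2 fold changes were 1.13 ± 0.33 for Crot and 0.90 ± 0.23 for Pex11a, which did not pass (edgeR adjusted p = 0.185 and 0.129). The other 4, namely the thiolase Acaa1a, the multifunctional enzyme Hsd17b4, Scp2 and the acyl-CoA importer Abcd3, had averaged log2 fold changes from -0.03 to 0.12. Hsd17b4 catalyses the same steps as Ehhadh for other substrates, and its averaged value was 0.06 ± 0.11.

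**Figure D2:**
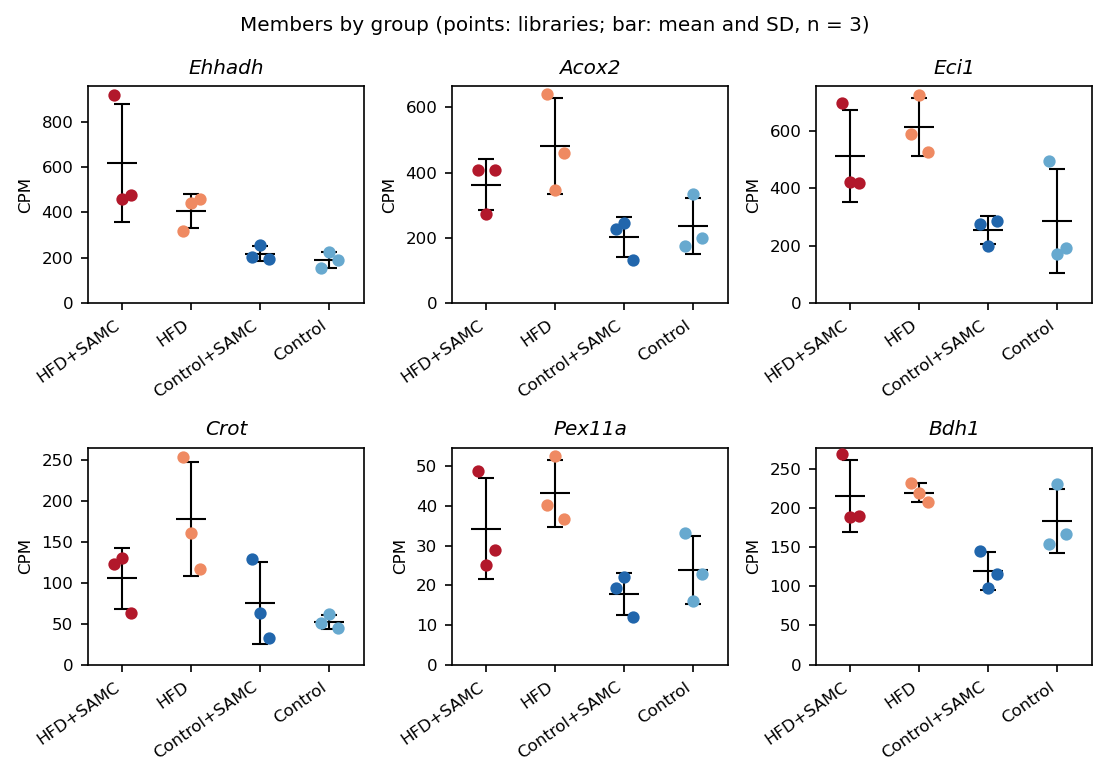
CPM of Ehhadh, Acox2, Eci1, Crot, Pex11a and Bdh1 in each library (points) by group, with the mean and SD of 3 libraries (bars). For Ehhadh the 6 high fat libraries sit between 318 and 919 CPM and the 6 normal diet libraries between 154 and 256 CPM, while each of the other 5 genes shows at least 1 library in the other diet's range.

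The auxiliary enzymes move double bonds so that unsaturated chains can be shortened, and their median in the averaged diet contrast was 0.34. The mitochondrial isomerase Eci1 was at 695, 419.8 and 417 CPM in HFD+SAMC and 588.5, 724 and 524 CPM in HFD, against 276, 198.5 and 287 CPM in Control+SAMC and 493, 171.5 and 192 CPM in Control. Control replicate 1 reached the high fat range and the other 5 normal diet libraries did not, and the averaged log2 fold change was 1.05 ± 0.26 (edgeR adjusted p = 0.118). Without Control replicate 1 it was 1.38 and passed, with an adjusted p of 0.00524. Decr1, the mitochondrial dienoyl-CoA reductase, was at 209, 148 and 175 CPM in HFD+SAMC and 207, 221 and 149.9 CPM in HFD, against 132, 119.7 and 132 CPM in Control+SAMC and 164, 134 and 105 CPM in Control. Its averaged log2 fold change was 0.50 ± 0.14. The largely peroxisomal counterparts Eci2 and Decr2 stood at 0.11 ± 0.12 and 0.19 ± 0.14.

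The promoters of Ehhadh, Acox2 and Eci1, the 3 members with the lowest p in the averaged diet contrast, are shown with that of Pdk4, the member that varied most within groups. They are the 250 bases before the annotated start in RefSeq on the GRCr8 build, read 5′ to 3′ on the gene's strand, with searched motifs in capitals on either strand. Ehhadh lies at chr11:92746159-92746408 (plus strand), Acox2 at chr15:19090705-19090954 (plus), Eci1 at chr10:13961000-13961249 (plus) and Pdk4 at chr4:34568330-34568579 (minus).
Ehhadh: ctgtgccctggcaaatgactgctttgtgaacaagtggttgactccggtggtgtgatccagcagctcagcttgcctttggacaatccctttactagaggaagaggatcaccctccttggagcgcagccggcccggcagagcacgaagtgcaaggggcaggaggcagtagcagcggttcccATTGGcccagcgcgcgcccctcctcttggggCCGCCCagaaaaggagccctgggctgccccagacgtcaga
Acox2: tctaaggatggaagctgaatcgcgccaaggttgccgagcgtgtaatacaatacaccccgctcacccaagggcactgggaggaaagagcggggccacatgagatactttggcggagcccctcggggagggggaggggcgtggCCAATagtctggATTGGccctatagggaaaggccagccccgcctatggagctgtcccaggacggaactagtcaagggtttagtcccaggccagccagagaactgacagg
Eci1: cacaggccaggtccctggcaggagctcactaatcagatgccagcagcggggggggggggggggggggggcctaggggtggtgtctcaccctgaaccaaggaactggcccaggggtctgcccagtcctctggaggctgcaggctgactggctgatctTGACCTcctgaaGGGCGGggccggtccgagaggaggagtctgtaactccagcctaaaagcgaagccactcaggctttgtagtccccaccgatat
Pdk4: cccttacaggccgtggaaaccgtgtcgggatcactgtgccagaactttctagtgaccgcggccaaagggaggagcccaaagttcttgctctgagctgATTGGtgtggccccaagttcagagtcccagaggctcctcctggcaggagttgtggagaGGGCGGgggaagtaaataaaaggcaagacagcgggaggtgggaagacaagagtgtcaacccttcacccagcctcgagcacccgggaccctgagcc
Capitals mark CCAAT and GGGCGG on the opposite strand, 71 and 40 bases before the start, in Ehhadh. In Acox2 they mark CCAAT 109 bases before the start and CCAAT on the opposite strand 97 bases before it. In Eci1 they mark AGGTCA on the opposite strand, 94 bases before the start, and GGGCGG, 82 bases before it. In Pdk4 they mark CCAAT on the opposite strand, 153 bases before the start, and GGGCGG, 95 bases before it. Promoters were found for 32 of the 35 members, without Acadl, Acaa2 and Decr1. The strict pattern AGGNCANAGGNCA, a pair of nuclear receptor half-sites with 1 base between them, as bound by PPARa with its partner RXR, was in 0 of 32 of these windows and in 0.37% of 33469 promoters. The single half-site AGGTCA was in 5 of 32 (14.06% of all promoters) and CCAAT in 11 of 32 (34.02%). GGGCGG was in 26 of 32 (30.47% of all promoters) and TATAAA in 3 of 32 (12.93%). Both strands were searched. Members were counted by gene, if any of their promoters held the motif, and the shares of all promoters by promoter, so these are not counted alike. A match here is a run of letters in a short window, and no binding was measured.

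Members of core mitochondrial oxidation had averaged diet log2 fold changes from -0.16 to 0.44, and 0 passed by edgeR. The acyl-CoA dehydrogenases take the first step for chains of different length, and their median in the averaged diet contrast was 0.24. Acadl, the long-chain form, was at 461, 369 and 412 CPM in HFD+SAMC and 431, 401.5 and 477 CPM in HFD, against 313, 294 and 327 CPM in Control+SAMC and 385, 331.5 and 313 CPM in Control. Among normal diet libraries, only Control replicate 1 reached the high fat range. Acadm, the medium-chain form, was at 588, 421.5 and 466 CPM in HFD+SAMC and 612, 578 and 521.5 CPM in HFD, against 383, 363.5 and 363 CPM in Control+SAMC and 427, 532 and 428 CPM in Control. Here the 3 Control+SAMC libraries were the lowest and Control libraries reached into the high fat range. Acads, the short-chain form, had the smallest spread within groups of any member (SD 0.11 on the log2 scale), at 182, 167 and 154 CPM in HFD+SAMC and 151.5, 141 and 169 CPM in HFD, against 141, 141 and 133 CPM in Control+SAMC and 165.5, 169 and 147 CPM in Control. Averaged log2 fold changes were 0.38 ± 0.10 for Acadl, 0.36 ± 0.11 for Acadm, 0.11 ± 0.09 for Acads and 0.12 ± 0.10 for the very-long-chain form Acadvl.

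The trifunctional protein of Hadha and Hadhb carries out the next steps for long chains, and Hadh and Acaa2 serve shorter ones. Hadhb was at 488, 349 and 403 CPM in HFD+SAMC and 422, 424 and 377 CPM in HFD, against 318, 252 and 346 CPM in Control+SAMC and 369.5, 242 and 288 CPM in Control. Its partner subunit Hadha was at 612, 458.5 and 493 CPM in HFD+SAMC and 536, 585.5 and 533 CPM in HFD, against 421, 419 and 509 CPM in Control+SAMC and 599, 405 and 421 CPM in Control. The 2 subunits thus had their lowest levels in the same library, Control replicate 2, and averaged log2 fold changes of 0.44 ± 0.13 for Hadhb and 0.21 ± 0.13 for Hadha. For Acaa2 the averaged value was 0.42 ± 0.15 and for Hadh 0.23 ± 0.11. Echs1, with the uncertain count, was alone below 0 in this group at -0.16 ± 0.14, with 6.39 to 8.03 CPM in HFD+SAMC, 5.71 to 6.68 CPM in HFD, 7.94 to 9.79 CPM in Control+SAMC and 4.84 to 8.30 CPM in Control.

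Carnitine shuttle transcripts had averaged diet log2 fold changes from 0.02 to 0.24. Cpt1a, whose product commits fatty acids to mitochondrial oxidation and is inhibited by malonyl-CoA, was at 757, 339 and 572 CPM in HFD+SAMC and 402, 517.5 and 763 CPM in HFD, against 303, 334 and 724 CPM in Control+SAMC and 1108, 266 and 623 CPM in Control. All 4 groups overlapped, and the averaged log2 fold change was 0.02 ± 0.36. Cpt2, the carrier Slc25a20 and the acetyltransferase Crat stood at 0.18 ± 0.15, 0.06 ± 0.12 and 0.24 ± 0.37. The electron transfer members Etfa, Etfb and Etfdh lay between -0.02 and 0.11.

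Of the ketone body members, Bdh1 interconverts acetoacetate and 3-hydroxybutyrate, and Acat1 is the mitochondrial acetoacetyl-CoA thiolase. Bdh1 was at 268, 188 and 189.5 CPM in HFD+SAMC and 232, 219 and 207 CPM in HFD, against 145, 97.5 and 116 CPM in Control+SAMC and 154, 229.8 and 166.5 CPM in Control. Its Control+SAMC libraries were the 3 lowest of the 12, and Control replicate 2 was as high as the HFD libraries. Acat1 was at 217, 144 and 187 CPM in HFD+SAMC and 212, 142 and 171 CPM in HFD, against 137.5, 134 and 122 CPM in Control+SAMC and 152, 173.5 and 145 CPM in Control. Averaged over SAMC, the diet log2 fold change was 0.55 ± 0.14 for Bdh1 (edgeR adjusted p = 0.124) and 0.32 ± 0.12 for Acat1 (0.29).

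**Figure D3:**
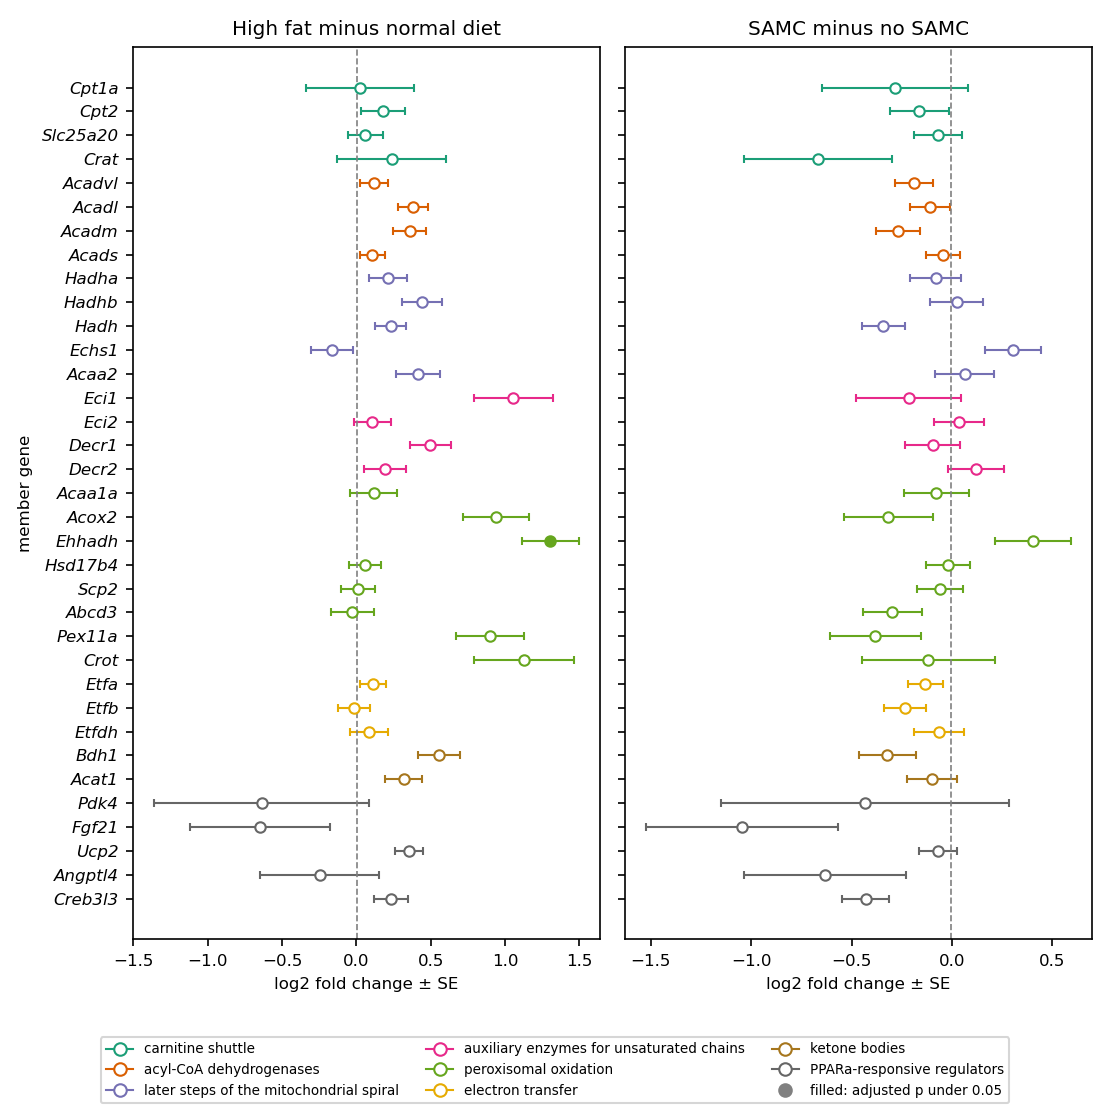
Log2 fold change ± SE of each of the 35 members for the high fat against the normal diet averaged over SAMC (left) and for SAMC against no SAMC averaged over diet (right), coloured by role, with filled points for an adjusted p under 0.05 and a dashed line at the median of all genes tested. On the left 29 members lie above 0 and Ehhadh, at 1.30, is the filled point, while on the right 6 lie above 0 and no point is filled.

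The diet effect can also be read in 2 comparisons that share no library, HFD+SAMC against Control+SAMC and HFD against Control, which cross the processing sets in opposite directions. In HFD+SAMC against Control+SAMC 0 members passed by edgeR and 2 by DESeq2 (Ehhadh and Bdh1). Over all genes edgeR called 10 there (0.0628%) and DESeq2 272. The lowest adjusted p was 0.0723, for Ehhadh (1.51 ± 0.27), followed by Bdh1 (0.85 ± 0.20, 0.166), Acadl (0.41 ± 0.14, 0.327), Pex11a (0.94 ± 0.33, 0.339), Acat1 (0.48 ± 0.18, 0.363) and Eci1 (1.01 ± 0.37, 0.363). At an unadjusted p under 0.05, 12 members were higher and 0 lower, against 5.62% and 5.26% of all genes. The count of 12 was 3 without HFD+SAMC replicate 1, 5 without Control+SAMC replicate 3 and 7 without Control+SAMC replicate 2. The same 12 members had no overlap between groups, against 9.27% of all genes. In HFD against Control 0 members passed by edgeR and 2 by DESeq2 (Ehhadh and Crot). Over all genes edgeR called 23 there (0.145%) and DESeq2 315. Here Ehhadh was at 1.10 ± 0.27 (adjusted p = 0.176), Crot at 1.76 ± 0.48 (0.227), Acox2 at 1.03 ± 0.32 (0.267), Eci1 at 1.10 ± 0.37 (0.32), Ucp2 at 0.38 ± 0.13 (0.336) and Decr1 at 0.52 ± 0.20 (0.369). At an unadjusted p under 0.05, 10 members were higher and 0 lower, against 5.91% and 4.76% of all genes, and 9 members were higher with no overlap, against 8.27% of all genes. The count of 10 was 4 without Control replicate 3 and 6 without HFD replicate 2 or HFD replicate 3.

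The 2 comparisons had 8 members in common among those higher at an unadjusted p under 0.05: Acadl, Hadhb, Eci1, Decr1, Acox2, Ehhadh, Pex11a and Ucp2. This was 66.7% of the 12 in HFD+SAMC against Control+SAMC and 80% of the 10 in HFD against Control. Over all genes tested, the 138 shared genes were 15.4% and 14.7% of those higher. The sign was the same for 29 of 35 members, or 82.9%, and for 56.6% of all genes. Across the 35 members the log2 fold changes had a Pearson correlation of 0.72, against 0.14 across all genes, as a description, since members share libraries and are not independent. The count of 8 was 2 (Ehhadh and Ucp2) without HFD+SAMC replicate 1, 3 without Control replicate 3, 4 without HFD+SAMC replicate 3 or Control+SAMC replicate 3, and 5 without HFD replicate 2 or 3 or Control+SAMC replicate 2. Ehhadh was among them in each of the 12 fits. Both comparisons took each gene's spread from 1 fit of all libraries, so their p-values are not independent. With only the groups compared in the fit, 10 members were higher in HFD+SAMC against Control+SAMC and 7 in HFD against Control, with 5 in common.

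**Figure D4:**
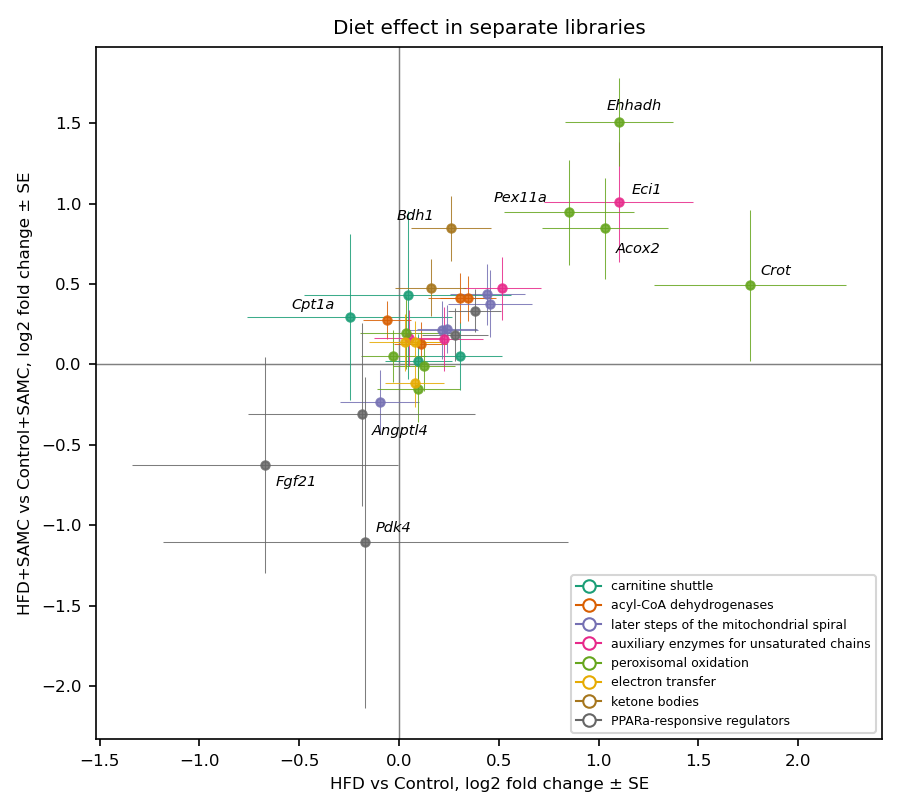
Log2 fold change ± SE of the 35 members in HFD against Control (horizontal) and in HFD+SAMC against Control+SAMC (vertical), coloured by role. Ehhadh lies at 1.10 and 1.51, Eci1 at 1.10 and 1.01 and Crot at 1.76 and 0.49, and Pdk4, Fgf21 and Angptl4 lie below 0 on both axes with wide bars.

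SAMC was asked about on each diet, and 0 members passed on either by edgeR or by DESeq2. In HFD+SAMC against HFD, 0.0503% of all genes were called, and at an unadjusted p under 0.05 there were 1 higher member, Ehhadh, and 3 lower, Hadh, Etfb and Creb3l3, against 5.28% and 5.34% of all genes. In Control+SAMC against Control, 0.119% of all genes were called, and 0 higher and 3 lower members, Hadh, Bdh1 and Creb3l3, had an unadjusted p under 0.05, against 5.18% and 4.61%. The members' median was -0.10 on the high fat and -0.14 on the normal diet, against 0.00 and -0.01 over all genes, and on the high fat diet it was -0.246 without HFD+SAMC replicate 1 and -0.035 without HFD+SAMC replicate 2. Without Control replicate 1 the median was -0.065 on the normal diet and -0.069 averaged over diet. Averaged over diet, 6 members lay above 0, against 49.2% of all genes, and the median was -0.12. There edgeR called 0 members and DESeq2 1, Creb3l3, where over all genes edgeR called 35 (0.22%) and DESeq2 436. At an unadjusted p under 0.05, 0 were higher and 5 lower (Acadm, Hadh, Etfb, Bdh1 and Creb3l3), against 6.31% and 6.11% of all genes. The counts of lower members moved with single libraries. On the high fat diet there were 6 without HFD+SAMC replicate 1, 1 without HFD+SAMC replicate 2 or HFD replicate 2, and 0 without HFD+SAMC replicate 3. On the normal diet there was 1 without Control+SAMC replicate 2, Control replicate 1 or Control replicate 3. Averaged, there were 8 without HFD+SAMC replicate 1, 2 without HFD+SAMC replicate 2 or 3, and 3 without HFD replicate 2, Control+SAMC replicate 2 or Control+SAMC replicate 3. The 2 SAMC comparisons on the separate diets share no library either: the sign was the same for 80% of members and 55.3% of all genes, and Hadh and Creb3l3 were the 2 members lower at an unadjusted p under 0.05 in both.

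Creb3l3 encodes CREBH, a membrane-bound liver transcription factor that works with PPARa on fasting genes such as Fgf21. It was at 578, 501 and 448 CPM in HFD+SAMC against 667, 786 and 673 CPM in HFD, and at 441, 421 and 481.5 CPM in Control+SAMC against 691, 485 and 574 CPM in Control. On both diets every SAMC library lay below every library without SAMC. Such separation, lower, was found in 9.41% of all genes on the high fat and 6.51% on the normal diet, where 1 and 6 members had it. The log2 fold change was -0.48 ± 0.16 on the high fat diet (edgeR adjusted p = 0.352), -0.38 ± 0.16 on the normal diet (0.483) and -0.43 ± 0.12 averaged (0.163). DESeq2 gave an adjusted p of 0.016 for the averaged value.

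Hadh, the short-chain hydroxyacyl-CoA dehydrogenase, was at 264, 191 and 202 CPM in HFD+SAMC against 317, 245 and 277 CPM in HFD, and at 191, 196 and 177 CPM in Control+SAMC against 229.7, 248 and 232 CPM in Control. The groups separated on the normal diet and overlapped on the high fat diet, and the averaged log2 fold change was -0.34 ± 0.11 (edgeR adjusted p = 0.222). For Acadm the averaged value was -0.27 ± 0.11 (0.35). Etfb, the beta subunit of the electron transfer flavoprotein, was at 215, 168 and 188 CPM in HFD+SAMC against 238, 275.5 and 205 CPM in HFD, and at 200.3, 223 and 195 CPM in Control+SAMC against 221, 252 and 208 CPM in Control. Its groups overlapped on both diets. The importer Abcd3 was at 206, 134 and 134 CPM in HFD+SAMC against 188, 272 and 176 CPM in HFD, and at 202, 159 and 165 CPM in Control+SAMC against 219, 183 and 193 CPM in Control.

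On the high fat diet, the adjusted p after Creb3l3 was 0.432 for Hadh (-0.35 ± 0.15), 0.447 for Ehhadh (0.61 ± 0.27), 0.458 for Etfb (-0.33 ± 0.15), 0.499 for Abcd3 (-0.42 ± 0.21) and 0.613 for Crot (-0.75 ± 0.47). All 3 HFD+SAMC libraries lay above all 3 HFD libraries for Ehhadh, at 458 CPM against 457 CPM at the closest, as was the case for 9.4% of all genes. Without HFD+SAMC replicate 1 its log2 fold change was 0.20. On the normal diet the lowest adjusted p was 0.347 for Bdh1 (-0.62 ± 0.20), followed by Creb3l3, Hadh (-0.33 ± 0.15, 0.502), Acadm (-0.32 ± 0.16, 0.54), Echs1 (0.37 ± 0.20, 0.579) and Acads (-0.21 ± 0.12, 0.606).

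Whether the diet effect depended on SAMC was tested as an interaction, which coincides with any difference between the processing sets and cannot be told apart from it. By edgeR 0 members passed and 0 had an unadjusted p under 0.05, and DESeq2 also called 0, where edgeR called 0.145% of all genes and 7.41% had an unadjusted p under 0.05. The members with the lowest p were Bdh1 (0.59 ± 0.28, edgeR adjusted p = 0.695), Acads (0.33 ± 0.17, 0.714) and Crot (-1.27 ± 0.66, 0.724).

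The remaining contrasts stay within a processing set and mix both factors. In HFD+SAMC against Control, Ehhadh rose by 1.71 ± 0.27 on the log2 scale (edgeR adjusted p = 0.0309), as 1 of 16 genes, 0.101%, called higher. Its call held in 8 of the 12 fits that left out a library, with adjusted p up to 0.19 without Control replicate 3, and was also lost without HFD replicate 3 (0.0508), Control replicate 1 (0.063) and Control replicate 2 (0.0654). The call was lost too with the replicate numbers as a block (0.0986) and with only the groups compared in the fit (0.103). Hadhb stood at 0.46 ± 0.19 (0.342) and Fgf21 at -1.69 ± 0.68 (0.348) there. In HFD against Control+SAMC 0 members passed by edgeR and 9 by DESeq2. Over all genes edgeR called 58 there (0.364%) and DESeq2 556. The lowest adjusted p were 0.0937 for Bdh1 (0.88 ± 0.20), 0.12 for Creb3l3 (0.66 ± 0.16) and 0.122 for Acadm (0.63 ± 0.16). At an unadjusted p under 0.05, 15 members were higher and 1, Echs1, lower, against 7.07% and 5.9% of all genes.

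Of the 5 PPARa-responsive regulators, Pdk4, Fgf21 and Angptl4 had a spread within groups larger than in 98.1%, 91.2% and 89.4% of genes tested, while Creb3l3 and Ucp2 were at 21% and 13.8%. Pdk4 encodes the kinase that shuts pyruvate dehydrogenase when fat is burned, and its SD within groups was 1.38 on the log2 scale. It was at 63.2, 82.6 and 71.6 CPM in HFD+SAMC and 45.5, 43.6 and 317.5 CPM in HFD, against 53.9, 93.7 and 321 CPM in Control+SAMC and 321, 27.8 and 108 CPM in Control. HFD replicate 4, Control+SAMC replicate 3 and Control replicate 1 were at 317.5 to 321 CPM, and the other 9 libraries at 27.8 to 108 CPM. Its averaged diet log2 fold change was -0.64 ± 0.72.

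Fgf21, a fasting hormone made by hepatocytes, was at 4.46, 6.18 and 7.10 CPM in HFD+SAMC and 6.18, 7.52 and 22.4 CPM in HFD, against 6.02, 4.23 and 17.1 CPM in Control+SAMC and 26.9, 6.98 and 23.5 CPM in Control. The 3 libraries high in Pdk4 and Control replicate 3 were the 4 highest. Angptl4, a secreted inhibitor of lipoprotein lipase, was at 69.7, 91.4 and 53.9 CPM in HFD+SAMC and 82.7, 110.5 and 154 CPM in HFD, against 22.4, 106 and 138 CPM in Control+SAMC and 179.8, 67.9 and 148 CPM in Control. The same 4 libraries were again the highest. Cpt1a was at 763, 724 and 1108 CPM in the 3 libraries high in Pdk4 and at 266 to 757 CPM in the other 9. Averaged diet log2 fold changes were -0.65 ± 0.47 for Fgf21 and -0.25 ± 0.40 for Angptl4. The 4 libraries with the lowest Pdk4, at 27.8 to 53.9 CPM, were the 4 with Fga at 3378 to 3822 CPM, and these are spread over HFD, Control+SAMC and Control. The part of this difference in the group comparisons was not tested.

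**Figure D5:**
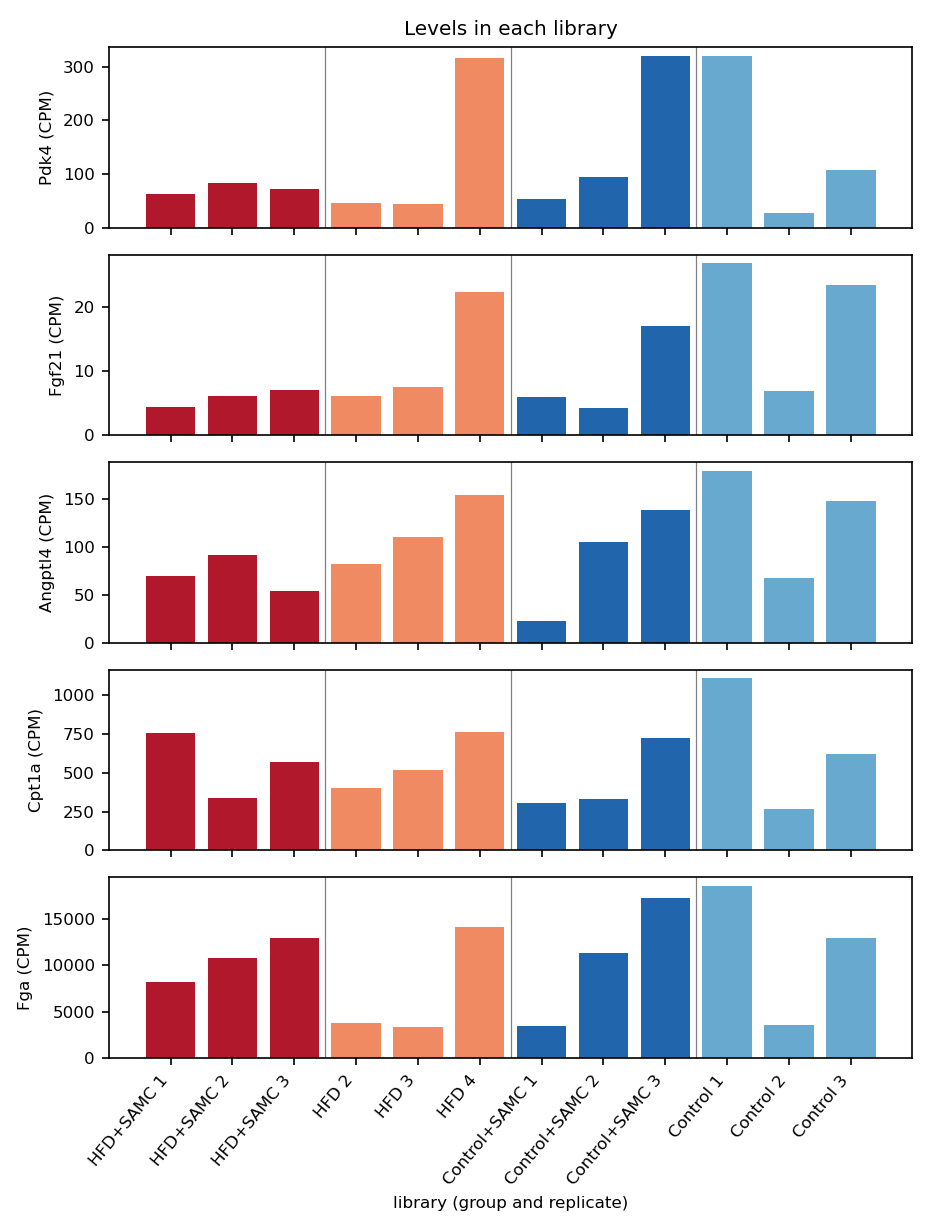
CPM of Pdk4, Fgf21, Angptl4, Cpt1a and the fibrinogen chain Fga in each of the 12 libraries (bars, coloured by group). Pdk4 is above 317 CPM in HFD replicate 4, Control+SAMC replicate 3 and Control replicate 1, and Fga is at 3378 to 3822 CPM in HFD replicates 2 and 3, Control+SAMC replicate 1 and Control replicate 2.

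Ucp2, a mitochondrial carrier that in healthy liver is found mainly in Kupffer cells, was at 23.7, 31.9 and 27.9 CPM in HFD+SAMC and 29.9, 26.6 and 32.3 CPM in HFD, against 22.4, 23.6 and 20.2 CPM in Control+SAMC and 23.5, 20.7 and 24.1 CPM in Control. Among high fat libraries, only HFD+SAMC replicate 1 lay within the normal diet range, and the averaged log2 fold change was 0.36 ± 0.10 (edgeR adjusted p = 0.134). Kupffer cell and macrophage markers summed to 902 to 1082 CPM in HFD+SAMC and 1072 to 1324 CPM in HFD, against 781 to 1005 CPM in Control+SAMC and 649 to 1080 CPM in Control. All 15 of these markers had an averaged diet log2 fold change above 0, with a median of 0.39, and 0 were at 0 in all libraries. Their part in the Ucp2 values was not tested.

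Spread within groups divided the members. The median SD on the log2 scale was 0.24 over members and 0.31 over all genes tested, and 10 of 35 members lay above the median of all genes. These 10 were the regulators Pdk4, Fgf21 and Angptl4, the carnitine transferases Cpt1a, Crat and Crot, and Eci1, Pex11a, Acox2 and Ehhadh. Acadvl, Acadl, Acads, Etfa and Ucp2 had SDs from 0.11 to 0.15. Crat, which exchanges acetyl groups between CoA and carnitine, ranged from 53.5 CPM in Control+SAMC replicate 3 to 312 CPM in HFD replicate 2.

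Genes outside the members, of the same and of related or opposing pathways, were taken from 5 further lists. In the averaged diet contrast 2163 of 15916 genes tested had an unadjusted p under 0.05 in either direction. The counts at that threshold given here for the lists also take either direction. Of 32 further oxidation and ketone body genes, 25 had an averaged diet log2 fold change above 0, with a median of 0.12, and 0 passed by edgeR, while 9 had an unadjusted p under 0.05. Nearest were the acyl-CoA synthetase Acsl5 (-0.59 ± 0.12, adjusted p = 0.0619), the acetoacetyl-CoA synthetase Aacs (-3.82 ± 0.78, 0.0824) and the thiolase Acaa1b (1.23 ± 0.27, 0.0845). Aacs ranged from 1.385 to 10.13 CPM in high fat libraries, against 93.7, 76.4 and 64.1 CPM in Control+SAMC and 9.547, 140.1 and 10.03 CPM in Control. Control replicates 1 and 3 thus lay within its high fat range. Of 28 further PPARa targets, 18 lay above 0, with a median of 0.12, and 13 had an unadjusted p under 0.05, higher or lower. Of these genes 2 passed and both rose. The pantetheinase gene Vnn1 was at 189.5, 104 and 114 CPM in HFD+SAMC and 102, 108 and 93.4 CPM in HFD, against 29.4, 32.9 and 32.2 CPM in Control+SAMC and 49.4, 35.8 and 30.2 CPM in Control. All high fat libraries lay above all normal diet libraries, with a log2 fold change of 1.75 ± 0.16 (edgeR adjusted p = 0.000763). Cidea, a lipid droplet protein, rose by 1.44 ± 0.18 (0.00514). The fatty acid hydroxylases Cyp4a1 and Cyp4a3, textbook PPARa targets picked here after their values were seen, had values below 0 that did not pass. Cyp4a3 was at 608.5, 553 and 661 CPM in HFD against 1418, 929 and 1491 CPM in Control (-1.07 ± 0.27, edgeR adjusted p = 0.191). Cyp4a1 was at 217, 222 and 99.2 CPM in HFD+SAMC against 601, 362.5 and 559.5 CPM in Control (-1.5 ± 0.29, 0.0666). The Cyp4a1 contrast mixes diet and SAMC, and the averaged diet values of both genes are not given. Cyp4a1 was at 384, 353.5 and 388 CPM in Control+SAMC, and it overlapped between HFD (316, 276 and 403 CPM) and Control. Cyp4a3 overlapped between HFD+SAMC (420.5, 706 and 326 CPM) and Control+SAMC (871, 626 and 753 CPM). In Control+SAMC against Control, Cyp4a3 had a log2 fold change of -0.77 ± 0.27 (edgeR adjusted p = 0.382). Of 11 malonyl-CoA and lipogenesis genes, 0 lay above 0, the median was -0.996, and 2 fell: the desaturase Scd (-6.02 ± 0.82, adjusted p = 0.0175) and the mitochondrial citrate carrier Slc25a1 (-0.72 ± 0.12, 0.0284). Of 24 genes of PPARa, its partners and energy sensing, 6 lay above 0 and 0 passed, with 4 at an unadjusted p under 0.05, the lowest for Hnf4a (-0.54 ± 0.12, adjusted p = 0.0792), Ppargc1a (-0.79 ± 0.25, 0.2) and Lpin1 (-0.83 ± 0.35, 0.332). Of 9 gluconeogenesis and fasting genes 0 passed and 1 had an unadjusted p under 0.05. For SAMC averaged over diet, 0 genes of these 5 lists passed. The lowest adjusted p there were 0.0559 for the glycerol channel Aqp7 (2.52 ± 0.47), 0.0739 for the lipase inhibitor G0s2 (-0.94 ± 0.19) and 0.0746 for Cidea (0.86 ± 0.18). Aqp7 was near the floor, at 0.049 to 2.28 CPM. It was highest in HFD+SAMC replicate 3, the library with skeletal muscle markers at 1211 CPM, whose part in this value was not tested.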

How the data were processed

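Per the labels' protocols, rat liver RNA was depleted of ribosomal RNA and sequenced as paired 150 bp reads, which the authors aligned with HISAT2 and counted per gene with HTSeq. Trimmomatic 0.36 and FastQC are named beside these tools, per the submitters' processing notes. The deposited count per gene is not normalized, and the deposited RPKM value could be rebuilt from the count, the listed length and the total count of the library (relative tolerance 1e-06) in all of 40154 genes but 1. Genome build, annotation release and strand setting were not given in the sources used here, so overlapping or antisense genes may share reads. RPKM is used here for levels between genes, and counts for all tests.

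Libraries were grouped by treatment label and numbered by title. Genes kept by filterByExpr (15916, with 99.96% of counts) entered edgeR 4.0.16 under R 4.3.3: TMM scaling, all 12 libraries in 1 robust quasi-likelihood fit with 8 residual degrees of freedom, two-sided tests, Benjamini-Hochberg adjustment within each of 9 contrasts, and a threshold of 0.05. CPM uses TMM-scaled library sizes. Each SE was worked back from the test, as the absolute log2 fold change divided by the square root of the quasi-likelihood F statistic. The steps were run on simulated counts with changes between groups larger than those of any member in the main fit. Detection of smaller changes between groups was not checked. DESeq2 1.42.0, other scalings and filters, each library left out, the groups compared alone and the replicate numbers as a block were alternatives. Full statistics are given for members past the threshold, and otherwise for up to 6 members by p in the 4 comparisons of groups that differ in 1 factor and up to 3 in the other contrasts. Values per library are given for these and for 11 members fixed by name. The members and lists were chosen with earlier results of these data known, so their counts are descriptions and carry no test of their own. Replicates differed by more than sampling noise, at 87.9 to 645 chi-square units per degree of freedom.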

Additional observations from a re-analysis of the deposited data

How the results depend on the processing

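Across scaling, filtering, dispersion, tool, block and leave-out alternatives, no called value changed sign. The count of members past the threshold moved with the tool and the scaling. DESeq2 called 9 members for diet averaged over SAMC (main 1), 2 for HFD+SAMC against Control+SAMC (main 0), 2 for HFD against Control (main 0), 9 for HFD against Control+SAMC (main 0) and 1 for SAMC averaged over diet (main 0). Over all genes, DESeq2 called 538, 272, 315, 556 and 436 in the same order, where the main fit called 67, 10, 23, 58 and 35. With library totals only, the counts were 12 for the averaged diet contrast and 2 each for HFD against Control and HFD against Control+SAMC. Over all genes that setting called 573, 136 and 127 in the same order. Without a filter on low counts 1 member, Ehhadh, passed in HFD+SAMC against Control+SAMC. With only the groups compared in the fit, 1 member passed in HFD against Control+SAMC, 0 in HFD+SAMC against Control, and the count shared by the separate diet comparisons was 5. The cause of these moves was not tested.

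With library totals only, the median of all genes was 0.22 for the averaged diet contrast, 0.29 for HFD against Control, 0.15 for HFD+SAMC against Control+SAMC, 0.27 for HFD+SAMC against Control, 0.16 for HFD against Control+SAMC and -0.14 for the interaction. With the main scaling the median of all genes lay between -0.01 and 0.02 in these contrasts. The members' medians with library totals were 0.41, 0.45, 0.35, 0.34, 0.52 and -0.15 in the same order.

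Leaving out a library gave 1 to 2 members called in the averaged diet contrast, 0 to 1 in HFD against Control (1, Eci1, without Control replicate 1), 0 to 1 in HFD+SAMC against Control (0 without HFD replicate 3, Control replicate 2 or Control replicate 3) and 0 to 1 in HFD against Control+SAMC. In HFD+SAMC against Control without Control replicate 1 the count stayed at 1, although Ehhadh did not pass there (edgeR adjusted p = 0.063). The members' median ran from -0.246 to -0.035 in HFD+SAMC against HFD and from 0.063 to 0.278 in HFD+SAMC against Control+SAMC, with -0.246 and 0.063 both without HFD+SAMC replicate 1. The shared count ran from 2 to 8.

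Over 15 pairs of libraries with the same replicate number, the correlation of deviations from group means was -0.22 to 0.25, with 2 above 0.1. Pairs with different numbers were not compared, so this cannot decide whether the replicate numbers of the titles pair the samples. With the replicate block, Ehhadh had an adjusted p of 0.0623 and Eci1 0.0302 in the averaged diet contrast, and 0 members passed in HFD+SAMC against Control (Ehhadh 0.0986). With 3 libraries a group and a biological coefficient of variation of 0.299 common to all genes, small differences may have been missed. Power was not calculated.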
